A study of Homo sapiens with 9 samples.

Results

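The cytosolic ribosomal protein genes encode the proteins that, with the ribosomal RNAs, build the small and large subunits of the ribosome. Members were the rows of the deposited table whose symbol is RPL or RPS followed by digits, with an optional A, X or L, together with RPLP0, RPLP1, RPLP2 and RPSA. The rule found 81 of 26190 numeric rows, 49 for the large subunit (RPL) and 32 for the small subunit (RPS). Polyadenylated RNA was measured in Jurkat cells, a human line established from a T-cell acute lymphoblastic leukaemia, growing exponentially in complete RPMI medium. The 9 libraries comprise 3 of the line with wild-type EZH2 (WT) and 3 of each CRISPR/Cas9-edited line, EZH2-KO1 (KO1) and EZH2-KO2 (KO2), and the labels name no drug treatment for any group. EZH2 is the catalytic subunit of Polycomb repressive complex 2, which methylates histone H3 at lysine 27, and the series title concerns sensitivity of EZH2-deficient leukaemia to CHK1 inhibition. Each edited group is 1 line, so p-values measure the spread between cultures of a line and not between independent edits, and whether a line grew from a single cell is not given in the sources used here.

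Ribosomal proteins are made in near-equal numbers and assembled with ribosomal RNA in the nucleolus, and surplus ribosomal proteins are degraded. Their messenger RNAs are among the most abundant of a growing cell and mostly begin with a terminal oligopyrimidine (TOP) tract, a C followed by an unbroken run of C and T, through which mTORC1 and the RNA-binding protein LARP1 control their translation and stability. Several members have further roles: RPL5 and RPL11 bind the ubiquitin ligase MDM2 when ribosome assembly is disturbed, and RPL5, RPL10, RPL11 and RPL22 are altered by mutation or deletion in T-cell leukaemia.

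The start of a ribosomal protein gene shows what the family shares in sequence. A promoter (250 bases before to 50 after the RefSeq start, GRCh38.p14) was matched for 64 of the 81 members, and 63 of these were tested. A run of at least 6 pyrimidines opening with C within 5 bases of the start was present in 46 of the 63 (73%), against 11% of all 27305 promoters and 11.6% of the 8761 promoters of other tested genes. The 8 stretches below were picked with the differences known, and all but RPS27L only from members with such a run. RPL39, RPL36A, RPL7A and RPL13A are the 4 of these with the most negative KO1 differences. RPL41, RPS13 and RPL21 have the smallest KO1 differences among those that passed in neither line. RPS27L is the single member that rose. Each runs 5′ to 3′ on the gene's strand from 60 bases before to 20 bases after the RefSeq start, and capitals mark the pyrimidine run from its first C within 5 bases of the start, so pyrimidines before that C stay in lower case.
RPL39 (chrX:119791611-119791690, minus strand): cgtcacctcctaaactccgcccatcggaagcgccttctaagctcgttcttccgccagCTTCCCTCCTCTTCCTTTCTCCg
RPL36A (chrX:101390951-101391030, plus strand): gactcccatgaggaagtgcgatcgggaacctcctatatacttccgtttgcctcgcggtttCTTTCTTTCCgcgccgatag
RPL7A (chr9:133348158-133348237, plus strand): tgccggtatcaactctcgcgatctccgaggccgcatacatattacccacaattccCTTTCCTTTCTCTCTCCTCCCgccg
RPL13A (chr19:49487548-49487627, plus strand): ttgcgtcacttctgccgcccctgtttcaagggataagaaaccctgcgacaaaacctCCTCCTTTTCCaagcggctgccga
RPL41 (chr12:56116573-56116652, plus strand): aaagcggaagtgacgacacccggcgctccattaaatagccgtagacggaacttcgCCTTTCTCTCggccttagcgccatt
RPS13 (chr11:17077648-17077727, minus strand): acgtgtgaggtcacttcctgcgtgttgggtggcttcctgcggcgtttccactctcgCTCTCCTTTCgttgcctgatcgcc
RPL21 (chr13:27251498-27251577, plus strand): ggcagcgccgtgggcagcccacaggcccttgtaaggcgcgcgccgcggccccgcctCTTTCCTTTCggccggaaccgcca
RPS27L (chr15:63157458-63157537, minus strand): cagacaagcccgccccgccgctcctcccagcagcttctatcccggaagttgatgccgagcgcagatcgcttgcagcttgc
Counted from that C, the run spans 22 bases in RPL39, 21 in RPL7A, 11 in RPL13A and 10 in RPL36A, RPL41, RPS13 and RPL21. Because these members were picked for having a run, they cannot show how runs relate to the differences. No such run was found for RPS4X, RPL10 and RPL3, which fell in both lines, or for RPL6 and RPS26, which passed in neither. In RPS27L no such run was found in this window.

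Values are FPKM (fragment numbers adjusted for transcript length and for sequencing depth), and the depth in reads is unknown. Summed FPKM ran from 417737 to 439704 per library, and 11028 to 11415 genes reached 1 FPKM. EZH2 itself was at 74.4 to 79.5 FPKM in WT, 103 to 108 in the libraries labelled KO1 and 87.9 to 90.7 in those labelled KO2, and a transcript level of this kind cannot show whether the protein was lost. All 9 T-lineage markers were expressed, with a summed level of 1467 to 1566 FPKM in WT, 1272 to 1405 in KO1 and 1472 to 1508 in KO2. Single markers moved within that sum. CD2 was at 35.8 ± 0.774 in WT, 90.6 ± 3.59 in KO1 and 4.38 ± 0.789 in KO2, while CD28 fell from 35.4 ± 0.483 to 7.73 ± 0.351 and 13.5 ± 0.481, and CD5 from 34.9 ± 2.45 to 14.5 ± 0.542 and 18.7 ± 0.764. Of 15 markers of B, myeloid, erythroid, epithelial and mesenchymal cells, 13 stayed at or under 1.08 FPKM in every library; the other two were CD79A, at 27.5 ± 2.57 in WT, 54.9 ± 5.52 in KO1 and 21 ± 1.65 in KO2, and COL1A1, at 0.471 ± 0.0335, 1.56 ± 0.246 and 1.41 ± 0.181. The part of these differences in the results was not tested. WT replicate 1 and KO1 replicate 3 stood apart within their groups in the ribosomal protein genes, as described below, and counts are given with and without them.

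In WT cells, ribosomal protein transcripts held a large share of all FPKM, and this share was lower in both edited lines. The members held 17.3, 17.7 and 17.5 percent of the summed FPKM in WT replicates 1 to 3, 15.4, 14.9 and 14.8 percent in KO1 and 15.4, 16.1 and 15.6 percent in KO2. No KO1 or KO2 library reached the lowest WT library. The group means were 17.5 ± 0.189 percent in WT, 15 ± 0.324 in KO1 and 15.7 ± 0.375 in KO2 (SD, n = 3). Members were 34 of the 50 and 51 of the 100 genes with the highest mean FPKM. Because FPKM are relative to each library's total, fewer ribosomal protein transcripts per cell and more of other transcripts cannot be told apart, and in bulk RNA neither can fewer cells of a type and less RNA per cell.

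**Figure D1:**
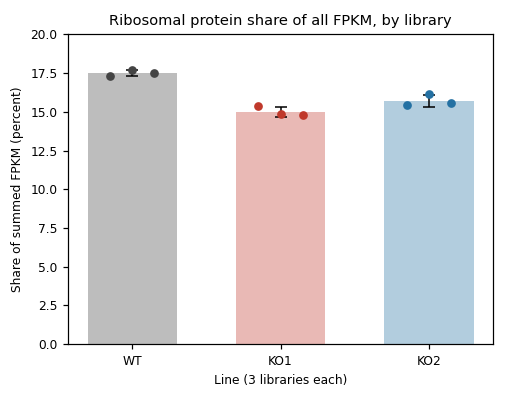
Bars show the mean share of summed FPKM (percent) held by the 81 ribosomal protein genes in WT, KO1 and KO2, error bars the SD and points the 3 libraries of each line. The WT points lie between 17.3 and 17.7 percent, and the edited points between 14.8 and 16.1 percent.

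Most ribosomal protein genes were lower in KO1 than in WT, by unequal and mostly modest amounts, with log2 differences from -0.79 to 0.28. Of the 78 members that passed the filter on low values (at least 1 FPKM in 3 libraries), 63 fell, 1 rose and 14 did not pass (limma, Benjamini-Hochberg adjusted p under 0.05). Over all 11737 tested genes, 31.9% fell and 35.6% rose. The median log2 difference was -0.28, a fall of 17.8 percent, beside 0.02 over all tested genes, and 76 of the 78 differences were below 0. In 58 of the 78 members all 3 KO1 libraries lay below all 3 WT libraries, beside 32.4% of tested genes, and in 1 member they lay above, beside 36.2%. Both subunits shared in this: 38 of 47 large-subunit genes fell (median -0.29), and 25 of 31 small-subunit genes fell while 1 rose (median -0.28). After quantile normalization, which gives all libraries the same set of values, 34 members fell and 8 rose, with a median of -0.10.

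In KO2 most members were lower than in WT as well, with a smaller median. Of the 78 members, 52 fell, 1 rose and 25 did not pass, beside 26.6% lower and 38.1% higher over all tested genes. The median was -0.16, a fall of 10.4 percent, beside 0.06 over all tested genes, and 67 differences were below 0. All KO2 libraries lay below all WT libraries in 50 members, beside 28.8% of tested genes, and above them in 1, beside 40.3%. By subunit, 28 of 47 large-subunit genes fell (median -0.14), and 24 of 31 small-subunit genes fell while 1 rose (median -0.16). Without the filter on low values 31 members fell in KO2, and after quantile normalization 21 fell and 10 rose, with a median of -0.03. Both comparisons use the same WT libraries. Without WT replicate 1 and KO1 replicate 3, 68 members fell in KO1 and 62 in KO2, with medians of -0.28 and -0.16.

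**Figure D2:**
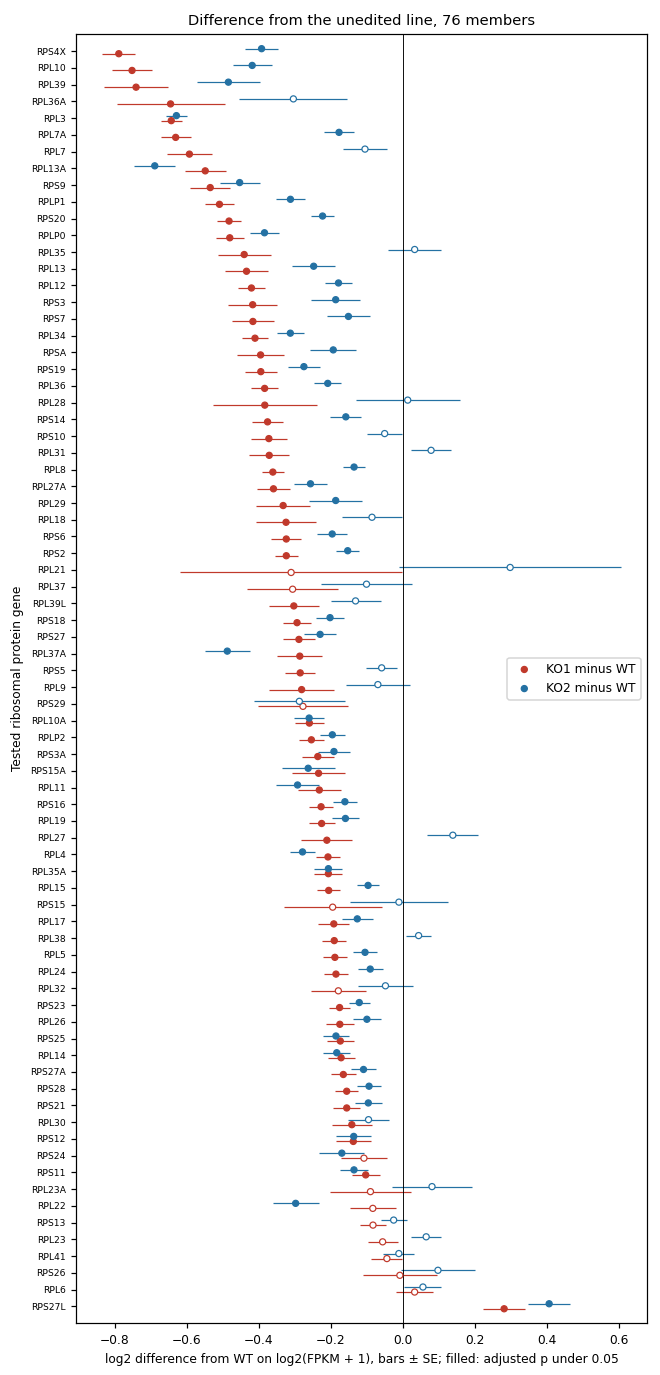
Each of 76 of the 78 tested members is placed by its log2 difference from WT on the log2(FPKM + 1) scale, red for KO1 and blue for KO2, with bars of ± SE and filled points for an adjusted p under 0.05. Nearly all points lie left of 0, RPS4X has the most negative KO1 difference (-0.79), and RPS27L alone is filled on the right; after quantile normalization 8 members in KO1 and 10 in KO2 were called higher.

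Among large-subunit members, RPL3, RPL10 and RPL39 had some of the largest falls. RPL10 and RPL39 are X-linked, and the other genes of that chromosome are described below. RPL3, whose loop reaches towards the peptidyl transferase centre, stood at 1279, 1293 and 1252 FPKM in WT, 818.4, 809.7 and 817.8 in KO1 and 825.6, 834.6 and 810.2 in KO2. The edited libraries fell into 1 narrow band well below WT, with no overlap. The log2 difference was -0.64 ± 0.03 (SE) in KO1 (limma adjusted p = 1.92e-08) and -0.63 ± 0.03 in KO2 (adjusted p = 3.56e-08). RPL10, which joins the large subunit late in the cytoplasm and carries the recurrent ribosomal mutation of T-cell leukaemia, stood at 282.2, 311.5 and 297.7 FPKM in WT, 183.6, 182.5 and 162.2 in KO1 and 222.6, 228.8 and 214.4 in KO2. All 3 groups were separate, with KO2 between WT and KO1. It fell by 0.75 on the log2 scale in KO1 (adjusted p = 6e-07) and by 0.42 in KO2 (adjusted p = 6.34e-05). RPL39, a small protein of the exit tunnel, stood at 268.6, 236.1 and 219.3 FPKM in WT, 141.7, 134.2 and 155.2 in KO1 and 166.8, 157.4 and 192.4 in KO2. Its edited libraries were all below WT, with differences of -0.74 ± 0.09 in KO1 (adjusted p = 2.73e-05) and -0.48 ± 0.09 in KO2 (adjusted p = 0.000679).

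RPL13A, which also acts outside the ribosome as a repressor of inflammatory messenger RNAs, was the member with the most negative KO2 difference. It stood at 412, 464.7 and 474.1 FPKM in WT, 319.9, 315.6 and 286 in KO1 and 279.7, 280.6 and 274.6 in KO2. Every edited library lay below every WT library, with log2 differences of -0.55 in KO1 (adjusted p = 1.01e-05) and -0.69 in KO2 (adjusted p = 2.3e-06). A row named as its pseudogene, RPL13AP5, held 1108 ± 33.3 FPKM in WT and differed by -0.32 and -0.31. How reads were divided between these rows is not given, so the level and rank of RPL13A are uncertain. RPL37A, a zinc-binding protein of the large subunit, stood at 2553, 2881 and 2899 FPKM in WT, 2440, 2294 and 2100 in KO1 and 1988, 2028 and 1916 in KO2. Its 3 groups did not overlap, and KO2 was the lowest, with -0.49 against -0.29 for KO1 (adjusted p = 5.24e-05 and 0.00192). RPL36A, whose copies elsewhere in the genome make its value uncertain, ranged from 150.2 to 202.9 FPKM in WT, 88.28 to 137.1 in KO1 and 138.7 to 157.5 in KO2. It fell in KO1 (-0.65 ± 0.15, adjusted p = 0.00298), while KO2 overlapped WT (-0.30 ± 0.15, adjusted p = 0.098).

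The acidic stalk proteins, which recruit the translational GTPases to the large subunit, fell together in both lines. RPLP0, the stalk base, stood at 1154, 1094 and 1065 FPKM in WT, 781.5, 768.6 and 822.1 in KO1 and 856.7, 850.1 and 828.9 in KO2. Its libraries did not overlap between WT and either edited line. RPLP0 differed by -0.48 in KO1 and -0.38 in KO2 (adjusted p = 1.63e-06 and 1.14e-05). RPLP1 differed by -0.51 and -0.31 (adjusted p = 1.05e-06 and 5.29e-05), and RPLP2 by -0.25 and -0.20 (adjusted p = 9.37e-05 and 0.000679).

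In the small subunit, RPS4X had the most negative KO1 difference of all members. This X-encoded protein stood at 1744, 1660 and 1573 FPKM in WT, 996.5, 909.9 and 971.8 in KO1 and 1255, 1285 and 1248 in KO2. The 3 groups were separate, and its log2 difference was -0.79 ± 0.05 in KO1 (adjusted p = 1.09e-07) and -0.39 ± 0.05 in KO2 (adjusted p = 2.7e-05). RPS9, which lines the messenger RNA entry channel, stood at 468.2, 532.7 and 504.4 FPKM in WT, 365.7, 345 and 326.7 in KO1 and 371.4, 376.8 and 349.4 in KO2. WT was above both edited lines without overlap, and the differences were -0.54 and -0.45 (adjusted p = 9.95e-06 and 4.13e-05). RPS6, the substrate of the S6 kinases downstream of mTORC1, was the most abundant member by FPKM, at 2884, 3091 and 3023 in WT, 2517, 2385 and 2288 in KO1 and 2616, 2653 and 2581 in KO2. It also fell in both lines without overlap, with differences of -0.32 and -0.20 (adjusted p = 4.91e-05 and 0.00187).

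Falls of other members were smaller, and not every one passed in both lines. RPSA, also known as the laminin receptor precursor, differed by -0.40 in KO1 and -0.19 in KO2 (adjusted p = 0.000286 and 0.0224). RPS27A, made as a fusion with ubiquitin, differed by -0.17 and -0.11 (adjusted p = 0.00179 and 0.0194). Of the 5 most abundant members by FPKM, RPL19, RPS18 and RPS24 had mean levels of 2587, 2146 and 2227 FPKM in WT. RPL19 differed by -0.23 in KO1 and by -0.16 in KO2 (adjusted p = 0.000257 and 0.00291), the latter turning to 0.08 after quantile normalization. RPS18 differed by -0.29 and -0.20 (adjusted p = 5.7e-05 and 0.000925). RPS24 did not pass in KO1 (-0.11, adjusted p = 0.15) and fell in KO2 (-0.17, adjusted p = 0.035), and the differences became 0.17 in KO1 and 0.13 in KO2 after quantile normalization.

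The 4 members tied to T-cell leukaemia had unequal falls. RPL10 is given above. RPL5 had 1495 ± 25 FPKM in WT, against 1312 ± 39.9 in KO1 and 1390 ± 27.8 in KO2, with differences of -0.19 and -0.10 (adjusted p = 0.000551 and 0.0189) that turned to 0.06 and 0.14 after quantile normalization. Its partner RPL11 stood at 1383 ± 96.4, 1178 ± 93.8 and 1127 ± 17.6 FPKM, with differences of -0.23 and -0.29 (adjusted p = 0.00587 and 0.00158), the KO1 difference becoming 0.03 after quantile normalization. RPL22 stood at 121.4, 104.2 and 104.4 FPKM in WT, 98.83, 101.3 and 110.7 in KO1 and 89.12, 92.16 and 85.96 in KO2. KO1 overlapped WT (-0.08, adjusted p = 0.272), and KO2 lay below both (-0.30 against WT, adjusted p = 0.00208). For comparison, 63 of all 78 tested members fell in KO1 and 52 in KO2, with medians of -0.28 and -0.16. Over all tested genes 31.9% fell in KO1 and 26.6% in KO2. Of 18 tested members mutated in Diamond-Blackfan anaemia, an inherited failure of red cell production, 15 fell in KO1 and 11 in KO2, with medians of -0.23 and -0.10. Among them RPS19 differed by -0.39 and -0.27 (adjusted p = 1.8e-05 and 0.000297), and RPS7 by -0.42 and -0.15 (adjusted p = 0.000101 and 0.0436). RPS14, whose loss underlies the anaemia of the 5q- syndrome, differed by -0.38 and -0.16 (adjusted p = 2.23e-05 and 0.00843), the KO2 difference becoming 0.05 after quantile normalization.

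**Figure D3:**
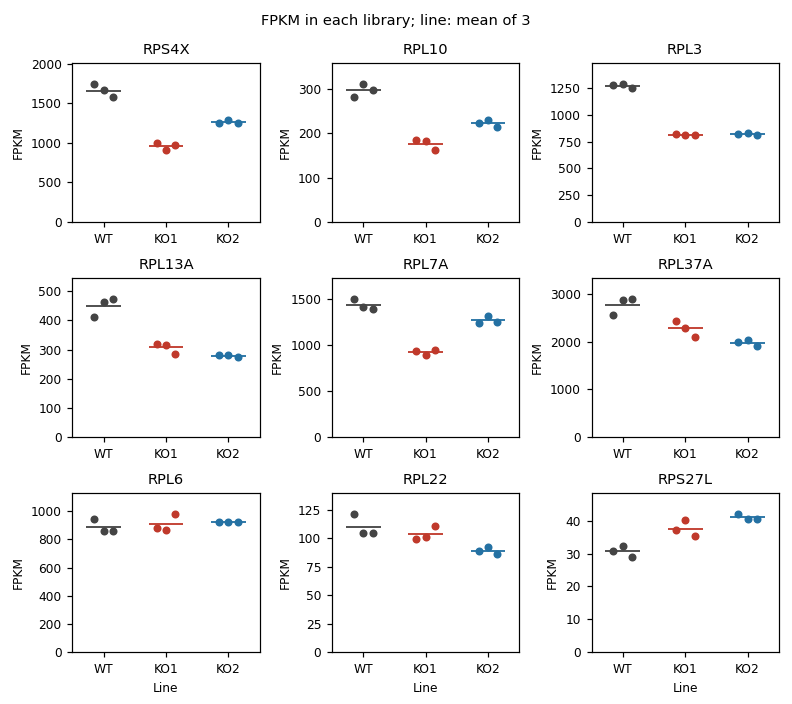
FPKM of 9 members in each library of WT, KO1 and KO2, with a line at each mean of 3 libraries and each axis starting at 0. RPL3 sits at the same level in both edited lines, RPS4X, RPL10 and RPL7A are lower in KO1 than in KO2, RPL13A and RPL37A have their lowest points in KO2, RPL6 overlaps throughout, and RPS27L is higher in both edited lines.

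RPS27L was the only tested member that rose, and it rose in both lines. This paralogue of RPS27 stood at 30.85, 32.43 and 28.89 FPKM in WT, 37.22, 40.33 and 35.19 in KO1 and 42.08, 40.37 and 40.6 in KO2. All edited libraries lay above all WT libraries, with differences of 0.28 ± 0.06 and 0.41 ± 0.06 (adjusted p = 0.00135 and 0.000117). RPS27 itself, at 2109 ± 109 FPKM in WT, differed by -0.29 and -0.23 (adjusted p = 0.000184 and 0.00101). Of the other paralogues, RPL39L had 68.53 ± 3.96 FPKM in WT, against 55.46 ± 5.16 in KO1 and 62.46 ± 3.07 in KO2, and fell in KO1 (-0.30, adjusted p = 0.00274) but did not pass in KO2 (-0.13, adjusted p = 0.12). The muscle form RPL3L and the testis form RPL10L were at or near 0 and were not tested.

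Some members did not pass in either line. RPL6 stood at 943.3, 861.9 and 863 FPKM in WT, 879.7, 869.7 and 982.1 in KO1 and 921.1, 925.8 and 924.6 in KO2. The groups overlapped, with differences of 0.03 ± 0.05 and 0.06 ± 0.05 (adjusted p = 0.588 and 0.359). RPL41, the smallest ribosomal protein, differed by -0.04 and -0.01 (adjusted p = 0.381 and 0.838), and RPS13 by -0.08 and -0.03 (adjusted p = 0.065 and 0.564). For RPS13 all KO1 libraries lay below all WT libraries, and it passed in KO1 without WT replicate 3 (-0.11, limma adjusted p = 0.0186). RPL23, which like RPL5 and RPL11 can bind MDM2, differed by -0.06 and 0.07 (adjusted p = 0.256 and 0.194). RPS26, which contacts messenger RNA at the exit channel, differed by -0.01 ± 0.10 and 0.10 ± 0.10 (adjusted p = 0.95 and 0.424). A difference that did not pass does not show equal levels: without WT replicate 1 and KO1 replicate 3, RPL6 (0.10, adjusted p = 0.00584) and RPL23 (0.09, adjusted p = 0.0351) were higher in KO2.

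Some calls near the threshold in KO2 against WT were lost with 1 library fewer. RPL5 did not pass there without WT replicate 2 or KO2 replicate 1 or 3 (-0.10 to -0.091, adjusted p = 0.0514 to 0.0729), and RPSA without WT replicate 2 or 3 or KO2 replicate 1 or 3 (-0.19 to -0.16, adjusted p = 0.0526 to 0.0851). RPS27A did not pass without WT replicate 1 or KO2 replicate 1 (-0.089 and -0.091, adjusted p = 0.0565 and 0.0808). RPS24 did not pass without WT replicate 1 (-0.10, adjusted p = 0.121) or any KO2 replicate (-0.18 to -0.15, adjusted p = 0.0625 to 0.0973). Most of these differences were close to those from all libraries. In the other direction, RPL36A passed in KO2 without WT replicate 1 (-0.43, adjusted p = 0.027) or KO1 replicate 3 (adjusted p = 0.0228), RPL7 without WT replicate 1 (-0.16, adjusted p = 0.0306), and RPS24 passed in KO1 without KO1 replicate 3 (-0.17, adjusted p = 0.0335).

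To ask which members moved unlike the typical one, each library was centred on its own member median and refitted, so that members lie on both sides of 0 by construction. In KO1, 26 members lay below and 8 above that median, beside 15.3% and 55.4% of all tested genes. In KO2, 14 lay below and 10 above, beside 15.2% and 52.2%. RPL3 was below in both, with relative log2 differences of -0.41 in KO1 and -0.48 in KO2 (adjusted p = 3.02e-07 and 1.26e-07). RPL6 was above in both, by 0.27 and 0.21 (adjusted p = 0.000392 and 0.00261), and RPS27L by 0.52 and 0.56. Between the edited lines, 15 members were above the member median in KO2 against KO1 and 5 below, beside 8.76% and 18.4%.

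The edited lines also differed from each other. Of the 78 members, 25 were higher in KO2 than in KO1, 2 were lower (RPL22 and RPL37A) and 51 did not pass, beside 18.3% higher and 12.4% lower over all tested genes; without the filter on low values 15 were higher and 0 lower. The median was 0.11, beside 0.04 over all tested genes. All KO2 libraries lay above all KO1 libraries in 40 members (28.7% of tested genes) and below in 4 (18.7%). RPL7, of the large subunit, stood at 680.3, 760.2 and 772.9 FPKM in WT, 522.6, 492 and 451.9 in KO1 and 661.7, 712.6 and 681.2 in KO2. KO2 overlapped WT, KO1 lay below both, and KO2 minus KO1 was 0.49 ± 0.06 (adjusted p = 0.000212). RPL35, which lines the exit of the tunnel, stood at 1321, 1126 and 1131 FPKM in WT, 886.4, 791.8 and 957.8 in KO1 and 1198, 1224 and 1229 in KO2. It showed the same order, with 0.47 ± 0.07 between the edited lines (adjusted p = 0.000832). RPL7A stood at 1498, 1404 and 1384 FPKM in WT, 931.9, 887.3 and 945.4 in KO1 and 1237, 1310 and 1242 in KO2, separate in all 3 groups, with 0.45 ± 0.04 between the edited lines (adjusted p = 2.85e-05). RPL31, close to the tunnel exit, stood at 1449, 1589 and 1589 FPKM in WT, 1279, 1166 and 1133 in KO1 and 1602, 1711 and 1572 in KO2, with 0.45 ± 0.06 (adjusted p = 0.000188) and no overlap between the edited lines. RPS4X differed by 0.40 ± 0.05 (adjusted p = 0.000118), and RPL3 by 0.01 ± 0.03 (adjusted p = 0.745). The 2 lower members gave -0.21 for RPL22 (adjusted p = 0.0284) and -0.20 for RPL37A (adjusted p = 0.0316). The call of RPL22 was lost without KO1 replicate 2 or 3 or KO2 replicate 1 or 3 (-0.23 to -0.17, adjusted p = 0.0538 to 0.0967). That of RPL37A was lost without KO1 replicate 1 or 2 or any KO2 replicate (-0.22 to -0.15, adjusted p = 0.0562 to 0.107), and for both the difference was larger without some of these libraries and smaller without others.

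Members were also set beside the genes around them. For each member the median log2 difference of up to 30 neighbouring tested genes that are no members, 15 on each side in RefSeq gene order, was set beside its own; this comparison was chosen after the differences were known. Across 78 members Pearson's r was 0.37 for KO1 minus WT, 0.19 for KO2 minus WT and 0.52 for KO2 minus KO1, and Spearman's rho was lower, at 0.17, 0.086 and 0.38. These are given as a description because the points share libraries and, in places, neighbours. The 4 members with the most negative KO1 differences, RPS4X, RPL10, RPL39 and RPL36A, are the 4 tested members on chromosome X. Their median was -0.75 in KO1 and -0.41 in KO2, beside -0.39 and -0.13 for the 379 other tested genes of that chromosome, of which 67.8% fell in KO1 and 42.7% in KO2. On chromosome 9, RPL7A, RPL12 and RPL35 had neighbour medians of -0.27, -0.24 and -0.22 in KO1 and 0.22, 0.18 and 0.25 in KO2. RPL12 itself differed by -0.42 and -0.18, so in KO2 both it and RPL7A (-0.18) lay on the other side of 0 from their neighbours, as did the X-linked RPL10 (-0.42, neighbours 0.01). RPS6, the other tested member on chromosome 9, lay opposite its neighbours in KO1 (-0.32 against 0.05) and between the edited lines (0.13 against -0.09). The neighbours of RPL37A had medians of -0.04 in KO1 and -0.30 in KO2, and those of RPL31 0.24 and 0.55. In contrast, the neighbours of RPL3 stood at -0.14 and -0.05 and those of RPL13A at -0.17 and 0.04. Members lay below their own neighbours in 71 of 78 cases in KO1 and 69 of 78 in KO2, with median gaps of -0.29 and -0.22. Without the 4 X-linked members, 59 of the remaining 74 fell in KO1 and 49 in KO2, with medians of -0.27 and -0.15.

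**Figure D4:**
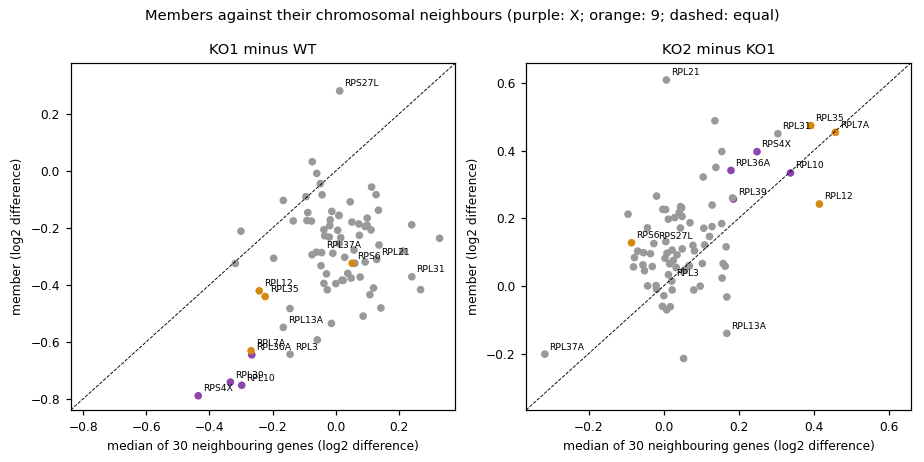
Each point is 1 of 78 members, its own log2 difference (vertical) against the median of its 30 neighbouring genes (horizontal; 16 to 27 neighbours for 4 members near a chromosome end), for KO1 minus WT on the left and KO2 minus KO1 on the right, with a dashed line of equality. Nearly all points on the left lie below the line, and members on X (purple) are lowest. On the right RPL7A and RPL35 (orange) lie at the high end and RPL37A at the low end of both axes. RPL12 (orange) lies at the high end of the horizontal axis only (0.42, with an own difference of 0.24).

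Libraries of different groups shared spread between replicates, most closely WT replicate 1 and KO1 replicate 3. These 2 deviated from their own group means with a correlation of 0.92 across 78 members, beside 0.34 across 11737 tested genes. Members are not independent, and deviations within a group sum to 0. Across members, WT replicate 2 and KO1 replicate 1 correlated at 0.85, and WT replicate 3 and KO1 replicate 2 at 0.78. KO1 replicate 2 and KO2 replicate 2 stood at 0.71, and WT replicate 1 and KO1 replicate 1 at -0.80. The 0.71 rests in large part on RPL21, which deviated by -0.43 in KO1 replicate 2 and -0.67 in KO2 replicate 2. This gene also lay far out in WT replicate 2 (0.49), WT replicate 3 (-0.31) and KO1 replicate 1 (0.47). The SD of the member deviations was 0.11 in WT replicate 1 and KO1 replicate 3 and 0.04 to 0.09 in the other 7. RPL28, RPS15 and RPL36A were among the lowest in both, and RPS15A and RPL39 among the highest. RPL28 stood at 341.3, 486.4 and 472.3 FPKM in WT and 384.3, 339.9 and 269.7 in KO1, and RPS15 at 470.1, 666.3 and 635.6 in WT and 578.3, 550.2 and 416.8 in KO1. These genes therefore had large errors: RPS15 did not pass (-0.20 ± 0.14 in KO1, adjusted p = 0.226), and RPL28 passed only in KO1 (-0.38 ± 0.14, adjusted p = 0.0353). Over 11484 genes the deviations followed GC content in WT replicate 1 and KO1 replicate 3 (Spearman's rho -0.60 and -0.51). Among the 78 members rho was -0.07 and 0.01 in these libraries. Over the same 11484 genes rho was 0.46 in WT replicate 2, 0.36 in WT replicate 3 and 0.48 in KO1 replicate 1. In the remaining libraries it lay between -0.18 and 0.23. The part of GC content in the results was not tested. RPL21, which has many processed copies, had the largest error of all, with 95.95, 153.7 and 88.05 FPKM in WT, 121.8, 64.77 and 85.78 in KO1 and 159.6, 84.11 and 180.8 in KO2.

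**Figure D5:**
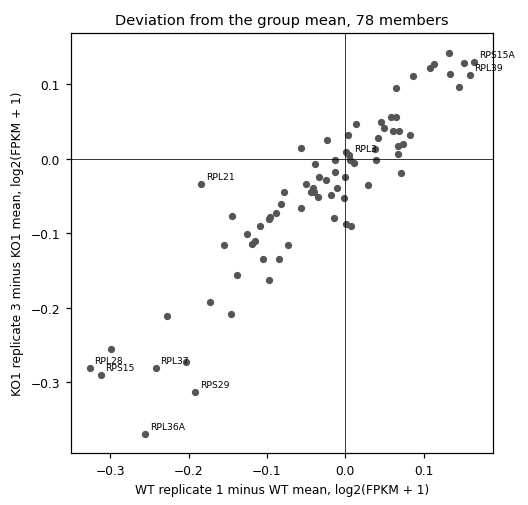
Deviation of each of 78 members from its group mean on the log2(FPKM + 1) scale, in WT replicate 1 (horizontal) and KO1 replicate 3 (vertical). The points run along a rising diagonal (r = 0.92), from RPL28 and RPS15 at the lower left to RPS15A and RPL39 at the upper right.

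Promoter sequence was set beside the differences for the 63 tested members with a promoter. The 46 with a pyrimidine run at the start had medians of -0.32 in KO1 and -0.19 in KO2, and the 17 without one -0.21 and -0.11. Motifs were searched on both strands in the 300-base promoter. CCGGAAG, bound by ETS factors such as GABP, was present in 34.9% of members, 10.7% of all promoters and 20.5% of other tested genes. CTTTCC was present in 46% of members, 26.3% of all promoters and 26.1% of other tested genes, and can overlap the pyrimidine run. GGGCGG, bound by SP1, was present in 55.6% of members, 44.6% of all promoters and 71.3% of other tested genes. AGATGGC, a YY1 motif, was found in 11.1% of members, 5.61% of all promoters and 7.9% of other tested genes. The E-box CACGTG was found in 4.76%, 7.43% and 10.7%, and TATAAA in 7.94%, 12% and 4.84%, so for TATAAA members lay below all promoters but above other tested genes. Members with CTTTCC had a median of -0.37 in KO1 and -0.16 in KO2. Those without it had -0.22 and -0.19, so the order differed between the lines. In KO1 the medians with and without GGGCGG were -0.36 and -0.24, and with and without TATAAA (5 and 58 members) -0.48 and -0.27. For CCGGAAG and for AGATGGC they were -0.31 and -0.28 each, and for CACGTG (3 and 60 members) -0.23 and -0.28. In KO2 they were -0.18 and -0.17 for GGGCGG and -0.19 and -0.17 for TATAAA. The part of any motif in the differences was not tested.

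Other genes that carry TOP tracts or act in translation fell in large part as well, beside 31.9% lower in KO1 and 26.6% in KO2 over all tested genes. Of 18 tested genes of this list, KO1 had 12 lower and 2 higher (median -0.26), and KO2 had 14 lower and 3 higher (median -0.38). EEF2, the translocase of elongation, went from 920.5 ± 33.1 FPKM in WT to 609.6 ± 18.9 in KO1 and 678.2 ± 13.9 in KO2 (-0.59 and -0.44, adjusted p = 2.24e-07 and 2.85e-06). EEF1G, of the elongation factor 1 exchange complex, differed by -0.57 and -0.46, and the poly(A)-binding protein PABPC1 by -0.48 and -0.38. RACK1 (listed as GNB2L1), a scaffold on the small subunit, differed by -0.47 and -0.28. Hosts of small nucleolar RNAs, which are TOP transcripts too, gave 5 lower and 1 higher of 6 in KO1 (median -0.39) and 4 lower of 6 in KO2 (median -0.32). SNHG5 stood at 286.4 ± 21.8, 198.2 ± 3.21 and 205.4 ± 2.52 FPKM in WT, KO1 and KO2, and differed by -0.53 and -0.47.

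FAU, outside the rule, encodes the ribosomal protein RPS30 as a fusion and did not pass, with differences of -0.09 and 0.10 (adjusted p = 0.475 and 0.43). Of 4 paralogues outside the rule, RPL22L1, RPL26L1 and RPL36AL did not pass in either line. RPL7L1, a nucleolar assembly factor, rose from 40.43 ± 0.495 FPKM in WT to 61.53 ± 3 in KO1 and 66.63 ± 0.78 in KO2 (0.59 and 0.71, adjusted p = 4.48e-07 and 1.75e-07).

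Genes of the nucleolus mostly rose in both lines. Over all tested genes, the share called higher was 35.6% in KO1 and 38.1% in KO2, and the share called lower 31.9% and 26.6%, and the counts of each list stand beside these. Of 23 tested nucleolar genes for ribosomal RNA synthesis and processing, KO1 had 20 higher and 0 lower (median 0.65), and KO2 had 22 higher and 0 lower (median 0.57). POLR1B, a core subunit of RNA polymerase I, went from 10.99 ± 0.246 FPKM in WT to 27.79 ± 0.0885 in KO1 and 21.58 ± 0.931 in KO2 (1.26 and 0.91, adjusted p = 4.29e-09 and 6.14e-08). UBTF, its transcription factor, differed by 1.02 and 0.87, the snoRNP protein NOP56 by 1.09 and 1.01, and nucleolin (NCL) by 0.80 and 0.32. Of 11 chaperones and importins of ribosomal proteins, 7 rose and 1 fell in each line (medians 0.35 and 0.38). GRWD1, the chaperone of RPL3, differed by 0.95 and 1.08 (adjusted p = 7.08e-07 and 3.82e-07), and HEATR3, which carries RPL5 into the nucleus, by 0.79 and 0.63. IPO7 rose in KO1 (0.48) and did not pass in KO2 (-0.09, adjusted p = 0.0697). The 77 mitochondrial ribosomal protein genes, which serve a separate ribosome, gave 35 higher and 12 lower in KO1 (median 0.14) and 49 higher and 10 lower in KO2 (median 0.23), beside all-gene medians of 0.02 and 0.06.

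Regulators of the family were mixed, and their short lists stand beside the same shares over all tested genes (35.6% higher and 31.9% lower in KO1, 38.1% and 26.6% in KO2). Of 12 genes of mTORC1 and TOP control, KO1 had 6 higher and 2 lower and KO2 had 8 higher and 1 lower, with medians of 0.20 and 0.22. LARP1, which binds the TOP tract, went from 78.78 ± 4.61 FPKM in WT to 99.33 ± 1.67 and 105.8 ± 1.14 (0.33 and 0.42, adjusted p = 5.69e-05 and 1.13e-05), and MLST8, a subunit of the mTOR complexes, differed by 0.47 and 0.60. RHEB, the GTPase that activates mTORC1, fell from 40.84 ± 2.3 FPKM to 28.65 ± 0.629 and 30.64 ± 1.27 (-0.50 and -0.40, adjusted p = 8.75e-06 and 5e-05). Of 7 transcription factors of ribosomal protein promoters, 4 rose and 1 fell in each line, with medians of 0.29 and 0.13. GABPB1 differed by 1.13 and 0.74, MYC by 0.98 and 1.01, and SP1 by -0.20 and -0.21. MDM2, the partner of RPL5 and RPL11, rose (0.37 and 0.25) while its relative MDM4 fell (-0.67 and -0.76).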

How the data were processed

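Per the labels' protocols, RNA of growing Jurkat cultures went into an mRNA library kit. The authors deposited 1 table of FPKM with a column per library; the submitters' processing notes list hg19 as build and, as tools, Cufflinks 2.2.1, STAR 2.5.0b and bedtools 2.7.0, without saying what each did. Annotation, strand setting and scaling across libraries: not given in the sources used here, so reads of near-identical copies may be split. Of 26228 rows, 38 hold text and were left out. Values of some members and list genes are not reported here. No count model or counting interval was used.

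Genes with at least 1 FPKM in 3 or more libraries (11737) were fitted as log2(FPKM + 1) with limma 3.58.1 in R 4.3.3, all 9 libraries together, with a mean-variance trend and Benjamini-Hochberg adjustment over all tested genes. Adding 1 before the logarithm shrinks differences of weak genes. The fit was tested on simulated data. Values after ± are SE beside a log2 difference and otherwise SD over 3 libraries.

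Members and gene lists were chosen with earlier results of these data known. Named were the largest differences in each comparison, members farthest from the member median, the 5 most abundant, a set of fixed names and, per other list, up to 4 genes with the smallest p in KO1; RPL12, RPL21, RPL28, RPS15 and RPS15A were chosen after their values were seen. Promoters and gene order came from RefSeq (GRCh38.p14; 98.5% of tested genes placed), GC content from GENCODE. Alternatives were other filters, pseudocounts, scalings, moderation and thresholds, 2-group fits, a replicate block, leaving out each library, and, chosen after seeing the data, leaving out WT replicate 1 with KO1 replicate 3, or the X-linked members.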

Additional observations from a re-analysis of the deposited data

Results flagged for a closer look

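By limma's test of KO2 against KO1, the edited lines differed from each other in 27 of the 78 tested members. Of these, 25 were higher in KO2 and 2 lower. Over all 11737 tested genes 18.3% were higher and 12.4% lower, so differing between the lines was not particular to the members. The 7 members named here were picked by the test of KO2 against KO1. That their differences from WT were unequal in the 2 lines therefore follows from the choice. In the higher group, the log2 difference KO2 minus KO1 was 0.40 for RPS4X, 0.45 for RPL31, 0.45 for RPL7A, 0.47 for RPL35 and 0.49 for RPL7, and KO1 had the lower level in each. In the lower group it was -0.21 for RPL22 and -0.20 for RPL37A, and KO2 had the lower level in both. The neighbouring genes of RPL7A, RPL35, RPL31 and RPS4X had medians of 0.46, 0.39, 0.30 and 0.25 between the edited lines, and those of RPL37A a median of -0.32. For RPL7 and RPL22 the neighbour medians were 0.14 and 0.05. The part of gene position in these differences was not tested.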

How the results depend on the processing

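The depth in reads is unknown, and 3 libraries a group limit what small differences can pass. Without a filter on low values, 31 members were lower in KO2 than in WT, and 15 were higher and 0 lower in KO2 than in KO1. Quantile normalization gave 34 lower and 8 higher in KO1 (median -0.10), 21 lower and 10 higher in KO2 (median -0.028), and 4 lower in KO2 than in KO1. Members hold 51 of the 100 highest ranks, whose values that method makes equal in all libraries. Median centring gave a KO2 median of -0.20 and, between the edited lines, 4 lower and a median of 0.073. At 1.2-fold or more, 38 were lower in KO1, 14 lower in KO2, and 9 higher and 0 lower in KO2 against KO1. The 2 members lower in KO2 than in KO1 became 0 without the trend, at an adjusted p under 0.01 and with the replicate block. Fits of 2 groups gave 2 higher in KO2. Without WT replicate 1 and KO1 replicate 3, 3 members were higher in KO2, 15 above the member median in KO1, and 24 and 13 below it in KO2 against WT and against KO1. With the member mean as the reference, 25 were above it in KO1 and 11 below it in KO2 against KO1. The cause of these shifts was not tested.

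Across tested genes, deviations of same-numbered libraries correlated between -0.29 and 0.32, and across the 78 members between -0.80 and 0.71. The value of 0.71 rests in large part on RPL21, as described above. Deviations within a group sum to 0, so these values cannot decide whether replicate numbers pair the samples. With the replicate block, 61 members fell and 1 rose in KO1, 47 fell and 1 rose in KO2, and 22 were higher in KO2 than in KO1. Leaving out 1 library at a time gave 57 to 68 lower in KO1, 39 to 54 lower and 1 to 2 higher in KO2, 18 to 30 higher and 0 to 3 lower in KO2 against KO1, and 3 to 9 below the member median there. The members' medians kept their sign under every alternative run.

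Some named genes had another direction under another processing, with values from near 0 to 0.17. Several of them had been called lower, among them RPL5 in both lines and RPS24 in KO2. Quantile normalization gave, in KO1, 0.025 for RPL11, 0.10 for RPL23, 0.037 for RPL27, 0.040 for RPL41, 0.063 for RPL5, 0.17 for RPS13, 0.17 for RPS24, 0.020 for RPS26 and 0.022 for FAU. In KO2 it gave 0.081 for RPL19, 0.0082 for RPL41, 0.14 for RPL5, 0.015 for RPL7A, 0.12 for RPS13, 0.049 for RPS14 and 0.13 for RPS24. Median centring gave -0.011 for RPL35 and -0.017 for RPL36AL in KO2. Leaving out 1 library at a time gave, in KO1, -0.12 to 0.098 for RPS26, -0.0011 to 0.074 for RPL36AL, -0.023 to 0.076 for RPL6 and -0.18 to 0.044 for FAU. In KO2 it gave -0.016 to 0.17 for RPS26 (-0.016 also without WT replicate 1 and KO1 replicate 3), -0.0065 to 0.11 for RPL35, -0.043 to 0.034 for RPL41 and -0.057 to 0.00040 for RPS13.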

Other observations

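Rows named as ribosomal protein pseudogenes were outside the rule but held sizeable FPKM. Of 31 such rows, 11 passed the filter; 5 fell and 0 rose in KO1, and 3 fell and 0 rose in KO2, with medians of -0.32 and -0.24. Over all tested genes 31.9% fell in KO1 and 26.6% in KO2. RPL13AP5 stood at 1108 ± 33.3 FPKM in WT (SD, n = 3), above the 450.3 ± 33.5 of RPL13A itself, and at 886.5 ± 14.7 in KO1 and 896 ± 39 in KO2. Its log2 differences from WT were -0.32 and -0.31, beside -0.55 and -0.69 for RPL13A. RPL21P28 had 383.2 ± 56.8 FPKM in WT, against 393.6 ± 68.7 in KO1 and 336.4 ± 62.2 in KO2, above the 112.6 ± 35.9, 90.77 ± 28.8 and 141.5 ± 50.8 of RPL21. How reads were divided between such near-identical rows is not given in the sources used here, so the levels of RPL13A and RPL21 are uncertain.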
